A study of Mus musculus with 8 samples.

Results

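The genes described here are 10 members of a pair of calcium-binding protein families: the annexins *Anxa2*, *Anxa3*, *Anxa4*, *Anxa5*, *Anxa6* and *Anxa7*, and the S100 genes *S100a10*, *S100a11*, *S100a6* and *S100a1*. They were chosen by name, and all 10 were found among the 18833 genes of the deposited table. The table holds 12581 mature oligodendrocytes from 8 single-cell RNA sequencing libraries, where reads that share a molecular tag count as a single RNA molecule (1 UMI). Hippocampus and cortex were each sampled from 2 wild-type mice (WT; mice 1 and 4) and 2 FireΔ/Δ mice (labelled KO; mice 3 and 6). The labels call the second tissue cortex, whereas the protocol describes the left hemisphere once its hippocampus had been taken out. All mice were female. Mice 1 and 3 were aged 1 month and 18 days, and mice 4 and 6 were aged 1 month and 16 days. The KO mice lack an intronic enhancer of *Csf1r*, the receptor that microglia need to survive. The deletion is carried by every cell of the animal, microglia are missing from development onwards, and other brain macrophages remain. The authors grouped the oligodendrocytes into the clusters Oligo1, Oligo2, Oligo3 and Oligo4.

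Annexins bind phospholipid membranes in the presence of calcium, and S100 proteins are small EF-hand calcium sensors that often act by binding a target protein. *S100a10* is the partner of annexin A2. Their complex links membranes to cortical actin, takes part in membrane repair, and binds plasminogen and its activator at the cell surface. *S100a6* (calcyclin) can bind annexins including annexin A2, and *S100a11* is known for binding annexin A1. In glia, raised annexin A2 is known from reactive and injured states, and S100 genes are widely used as glial markers.

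Per library there were 904 to 2784 cells, and the median cell held between 9377 and 13725.5 UMIs. Oligo1 held 1558 cells, of which 1552 came from KO mice and 6 from WT hippocampus of mouse 4. A *Csf1r* UMI was seen in 5.31% to 10.2% of cells of the WT libraries and in 0% to 0.155% of cells of the KO libraries, as labelled. Summed UMIs of microglial markers (11 genes) were 0.669 to 1.60 per 10000 UMIs in WT and 0.165 to 0.219 in KO libraries, and within KO mice 0 of the 11 were higher in Oligo1 than outside it in all 4 libraries. Of the 12581 cells, 21 barcodes occurred in more than 1 library. The table used here holds oligodendrocytes alone, so the share of cells with a UMI that free RNA alone would give could not be measured in another cell type.

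In the mouse annotation of GRCm38, *Anxa2* (ENSMUSG00000032231) spans chr9:69453620-69491795 on the plus strand and *Anxa4* chr6:86736840-86793584 on the minus strand. *Anxa5* lies at chr3:36448923-36475894, minus strand. All 4 S100 members lie on chromosome 3, *S100a1* at chr3:90511034-90514392 (minus strand), *S100a6* at chr3:90612882-90624181, *S100a11* at chr3:93520488-93526287 and *S100a10* at chr3:93555080-93564643 (plus strand). *Anxa3*, *Anxa6* and *Anxa7* are on chromosomes 5, 11 and 14. Promoter sequence from RefSeq (GRCm38.p6) was at hand for 7 of the 10 members. RefSeq and the annotation above place some starts differently, so the windows of *Anxa2*, *Anxa5* and *S100a6* run into the gene spans just given. The 250 bases before the RefSeq start are shown for 4 of them, chosen because *Anxa2* and *Anxa4* shared 1 pattern of levels over the clusters and *Anxa5* and *S100a6* shared another, with motif matches in capitals. The motifs searched on both strands were STAT (TTCNNNGAA), AP-1 (TGANTCA), TEAD (CATTCC), the letters TATAAA of the box of that name, and the SRF CArG box.
Anxa2 promoter, chr9:69453433-69453682, plus strand: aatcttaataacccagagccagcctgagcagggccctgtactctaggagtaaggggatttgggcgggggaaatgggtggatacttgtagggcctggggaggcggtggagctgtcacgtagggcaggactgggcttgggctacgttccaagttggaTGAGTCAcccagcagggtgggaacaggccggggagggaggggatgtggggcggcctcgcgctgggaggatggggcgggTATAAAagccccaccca
Anxa4 promoter, chr6:86793585-86793834, minus strand: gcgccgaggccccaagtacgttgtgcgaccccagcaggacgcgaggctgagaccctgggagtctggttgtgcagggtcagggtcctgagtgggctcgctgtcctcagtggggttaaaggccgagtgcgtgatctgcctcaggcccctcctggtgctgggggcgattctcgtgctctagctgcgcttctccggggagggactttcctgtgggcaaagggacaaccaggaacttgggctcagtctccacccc
Anxa5 promoter, chr3:36475888-36476137, minus strand: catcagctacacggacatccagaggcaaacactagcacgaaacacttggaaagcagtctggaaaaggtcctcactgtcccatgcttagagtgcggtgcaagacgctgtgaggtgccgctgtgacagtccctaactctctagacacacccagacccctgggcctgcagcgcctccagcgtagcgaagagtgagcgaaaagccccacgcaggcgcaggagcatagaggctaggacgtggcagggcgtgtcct
S100a6 promoter, chr3:90612644-90612893, plus strand: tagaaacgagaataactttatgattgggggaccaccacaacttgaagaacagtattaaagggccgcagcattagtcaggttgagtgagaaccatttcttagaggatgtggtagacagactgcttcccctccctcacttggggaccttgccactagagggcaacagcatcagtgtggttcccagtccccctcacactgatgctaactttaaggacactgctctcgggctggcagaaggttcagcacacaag

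The *Anxa2* promoter held an AP-1 match from 95 to 89 bases before the RefSeq start and a TATA match from 17 to 12 bases before it. Over the 32851 promoter windows of the same length in the table, 6.75% held an AP-1 match and 12.4% a TATA match. The other 3 windows shown held none of the searched letters. Among the members not shown, *S100a11* also held an AP-1 match, and *Anxa7* and *S100a1* held none of the motifs. STAT, TEAD and CArG box matches, which 7.02%, 12.6% and 1.47% of all windows held, were in none of the members' windows.

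*Anxa2* was high in Oligo1, at an intermediate level in Oligo4 of most KO libraries and low in all other cells. Values are mean log2(normalized UMI count + 1) per cell, in log2 units, on the scale the authors deposited. In Oligo1, *Anxa2* stood at 1.00 and 0.69 in the hippocampus of KO mice 3 and 6, and at 0.68 and 0.60 in their cortex. In the same order, Oligo4 had 0.29, 0.20, 0.20 and 0.10, Oligo3 had 0.09, 0.06, 0.06 and 0.05, and Oligo2 had 0.08, 0.06, 0.03 and 0.04. The Oligo4 value in cortex of mouse 6 was close to the 0.10 of Oligo4 in hippocampus of WT mouse 1. Oligo1 lay above every other cluster in each of the 4 KO libraries, and the levels of Oligo1 did not overlap those of any other cluster. An *Anxa2* UMI was seen in 55.8% to 65.7% of Oligo1 cells and in 6.58% to 11.3% of the other cells of the KO mice. With each cell thinned at random to 5000 UMIs, the Oligo1 share was 32.7% to 50.1% and the share outside 2.61% to 6.91%. Per 10000 UMIs, Oligo1 held 9.88 to 15.2 times the *Anxa2* UMIs of the other clusters in the 4 KO libraries. Over the 2 KO mice the difference in mean level was 0.66 ± 0.12 (SD, n = 2 mice). Clustering had used this same expression table, so a cluster set against the others is described here and not tested.

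In the WT libraries, which hold too few Oligo1 cells to describe a level, *Anxa2* was highest in Oligo4 in 4 of 4, at 0.10 and 0.06 in the hippocampus of mice 1 and 4 and 0.06 and 0.05 in their cortex. Oligo3 of the same libraries had 0.09, 0.03, 0.06 and 0.04. The WT values of Oligo4 and Oligo3 overlapped, so their order within a library was narrow, while Oligo2 was the lowest in 8 of 8 libraries of either genotype.

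**Figure D1:**
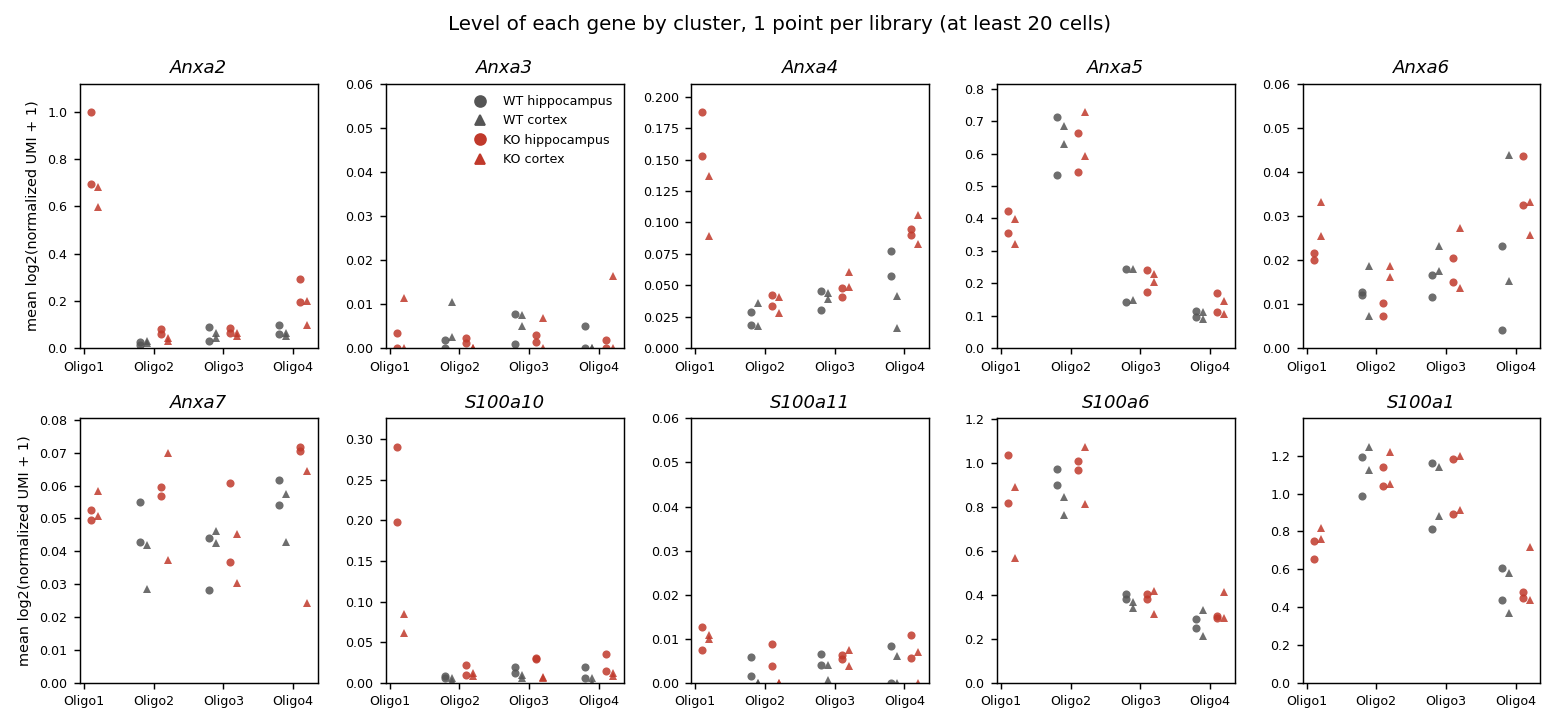
Mean log2(normalized UMI count + 1) per cell of each gene, by cluster, with each point 1 library of at least 20 cells and colour giving genotype. Anxa2 in Oligo1 lies between 0.60 and 1.00 in the 4 KO libraries, above all other points, while Anxa5 lies highest in Oligo2 of both genotypes.

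*S100a10*, which encodes the small subunit that binds annexin A2, was also highest in Oligo1 of all 4 KO libraries, at lower counts. Its order among the other clusters varied between libraries, with Oligo2 lowest in 2 of 4 KO and 1 of 4 WT libraries. Its level in Oligo1 was 0.29 and 0.20 in hippocampus of KO mice 3 and 6, and 0.08 and 0.06 in cortex. Outside Oligo1 it was 0.01 to 0.03 in KO and 0.01 to 0.02 in WT libraries. All 4 Oligo1 values thus lay above all values outside it, and the hippocampal values lay above the cortical ones. A UMI was seen in 23.5%, 16.7%, 9.52% and 7.14% of Oligo1 cells in that order, against 0.993% to 3.17% of the other KO cells. Over the mice the difference was 0.14 ± 0.04 (SD, n = 2 mice). It was 0.22 from the hippocampal libraries alone and 0.06 from the cortical ones. Per 10000 UMIs, Oligo1 held 11 to 15.3 times as many *S100a10* UMIs as the other clusters.

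Within Oligo1, cells with an *Anxa2* UMI more often had an *S100a10* UMI. The share was 29.1% of 564 cells with *Anxa2* against 12.9% of 295 without in hippocampus of mouse 3, and 24.3% of 251 against 7.11% of 197 in mouse 6. In cortex it was 13.4% of 82 against 4.62% of 65 for mouse 3, and 12.7% of 55 against 0% of 43 for mouse 6. The direction was the same in 4 of 4 libraries. Cells with *Anxa2* were also deeper, with median UMI counts of 10295.5, 11376, 14579 and 14657 against 9433, 10819, 13859 and 12854, and the part of depth in these shares was not tested. Pearson's r of the levels over the cells of a library was 0.30 to 0.35 for *S100a10* and −0.16 to 0.09 for *S100a1*, with cells of 1 library sharing its preparation. For *S100a1* the shares were 60.6% against 64.4%, 51.0% against 62.4%, 65.9% against 83.1% and 83.6% against 69.8%, so that the direction was opposite in 3 of 4 libraries. Other members were also seen more often with *Anxa2*, *S100a6* in 4 of 4 libraries (58.2% against 45.8%, 64.9% against 63.5%, 52.4% against 46.2% and 63.6% against 58.1%) and *Anxa4* and *Anxa5* in 3 of 4.

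**Figure D2:**
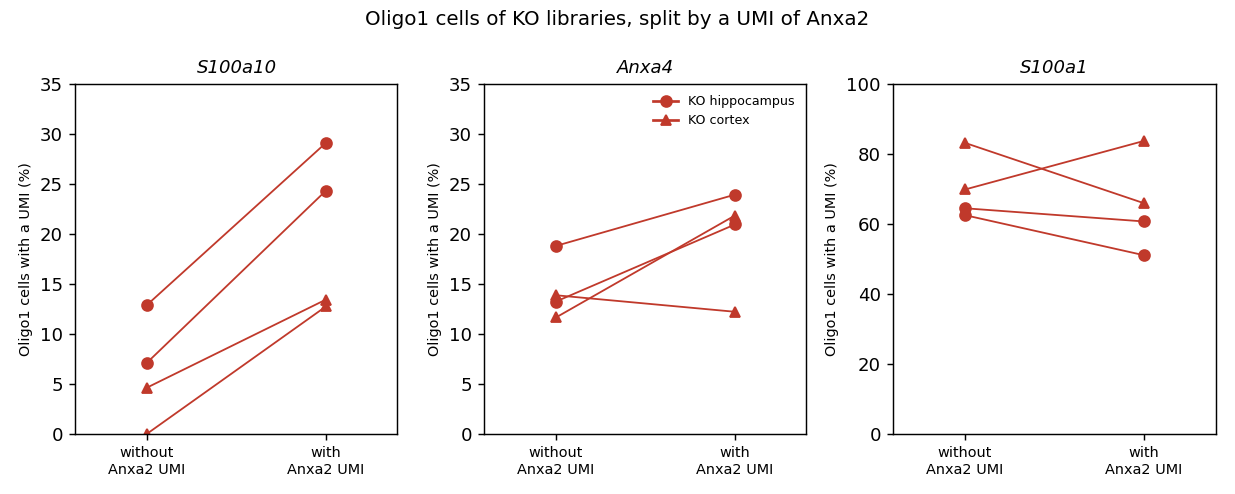
Percent of Oligo1 cells of each KO library that had a UMI of the named gene, among cells with and without an Anxa2 UMI. S100a10 was seen more often with Anxa2 in all 4 libraries (12.7% to 29.1% against 0% to 12.9%).

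*Anxa4*, an annexin of epithelia and secretory membranes, was also highest in Oligo1 of all 4 KO libraries, by a smaller margin. It stood at 0.15 and 0.19 in hippocampus of mice 3 and 6 and 0.09 and 0.14 in cortex, with a UMI in 12.9% to 21.7% of cells. Oligo4 of KO mice followed with 0.08 to 0.11, and Oligo2 and Oligo3 had 0.03 to 0.06. The Oligo1 and Oligo4 ranges overlapped, and after thinning to 5000 UMIs *Anxa4* was no longer highest in Oligo1 in every KO library, unlike *Anxa2* and *S100a10*. The difference from the other clusters was 0.09 ± 0.02 (SD, n = 2 mice), at 0.07 in mouse 3 and 0.11 in mouse 6. The size taken as the one to name was 0.1 log2 units in every mouse, which mouse 3 did not reach.

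*S100a6*, also known as calcyclin, was high in both Oligo1 and Oligo2. In Oligo1 it stood at 0.82 and 1.04 in hippocampus of KO mice 3 and 6 and at 0.57 and 0.89 in cortex. Oligo2 had 0.81 to 1.07 in KO and 0.76 to 0.97 in WT libraries, Oligo3 had 0.31 to 0.42 and 0.34 to 0.40, and Oligo4 had 0.29 to 0.42 and 0.21 to 0.33. Oligo2 was the highest cluster in 4 of 4 WT and 3 of 4 KO libraries. Oligo1 exceeded the pooled other clusters by 0.31 ± 0.14 (SD, n = 2 mice), and its range overlapped that of Oligo2.

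*Anxa5*, whose product binds phosphatidylserine, was highest in Oligo2. Its level in Oligo2 was 0.54 to 0.73 in KO and 0.53 to 0.71 in WT libraries, with a UMI in 49.5% to 63.4% of cells. Oligo1 had 0.32 to 0.42, Oligo3 had 0.14 to 0.24 and Oligo4 had 0.09 to 0.17. Oligo2 was highest and Oligo4 lowest in 8 of 8 libraries, and the ranges of Oligo2 and of Oligo1 did not overlap with each other or with those of Oligo3 and Oligo4. *S100a1*, an S100 protein best known from muscle, had the lowest level in Oligo4 in 8 of 8 libraries. There it stood at 0.44 to 0.71 in KO and 0.37 to 0.61 in WT mice, against 0.99 to 1.25 in Oligo2 and 0.81 to 1.2 in Oligo3. Oligo1 lay between, at 0.75, 0.66, 0.82 and 0.76, and was lower than the pooled other clusters by −0.26 ± 0.12 log2 units (SD, n = 2 mice). Summed astrocyte markers (6 genes) had lower means in these clusters too, with ranges that overlapped those of Oligo2 in KO mice, at 1.22 to 2.05 per 10000 UMIs in Oligo1 and 0.884 to 1.99 in Oligo4 of KO mice against 1.94 to 2.83 in Oligo2 and 2.31 to 3.08 in Oligo3. In WT mice they were 1.33 to 1.56 in Oligo4 against 2.02 to 2.77 in Oligo2 and 2.34 to 2.89 in Oligo3. Of the 6 genes, 3 were lower in Oligo1 in all 4 KO libraries, and their part in the lower levels of S100 genes was not tested.

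The remaining 4 members were sparse. *Anxa7*, the annexin also called synexin, had levels of 0.02 to 0.07 with no cluster standing apart. *Anxa6* was seen in 2.68% to 4.08% of Oligo1 cells and *S100a11* in 1.1% to 2.04%. *Anxa3* was seen in 0% to 0.68% of Oligo1 cells.

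Of the 10 members, *Anxa2*, *S100a10* and *S100a6* were higher in Oligo1 by at least 0.1 in both KO mice and *S100a1* was lower. *S100a10* passed the filter of a UMI in 5% of cells through Oligo1 alone, so its presence in this count is fixed by the filter, and nothing is read from the count. Over all 9321 genes that passed the same filter, 3.09% were higher, with 2.64% lower. Differences had a median of 0.03 over all 10 members and 0.00 over all genes. In Oligo4 against Oligo2 and Oligo3, *Anxa5*, *S100a6* and *S100a1* were lower in every mouse of both genotypes, out of 6 members that passed, against 4.33% of 9297 genes in WT and 4.86% of 9360 genes in KO mice. *Anxa5* differed by −0.18 ± 0.05 in WT and −0.20 ± 0.02 in KO mice, *S100a6* by −0.21 ± 0.06 and −0.22 ± 0.02, and *S100a1* by −0.53 ± 0.06 and −0.55 ± 0.07 (SD, n = 2 mice each). For *S100a6* Oligo4 lay further from Oligo2 than from Oligo3. In cortex of KO mice 3 and 6, Oligo4 had 0.29 and 0.42 against 0.31 and 0.42 in Oligo3. In WT libraries it had 0.21 to 0.33 against 0.34 to 0.40 in Oligo3. *Anxa5* in Oligo4 also lay further from Oligo2 than from Oligo3. In KO libraries *Anxa5* had 0.11 to 0.17 in Oligo4, 0.17 to 0.24 in Oligo3 and 0.54 to 0.73 in Oligo2. In WT libraries *Anxa5* had 0.09 to 0.12, 0.14 to 0.24 and 0.53 to 0.71 in these clusters. No member was higher by that rule, where 4.45% and 4.53% of genes were. *Anxa2* came nearest in KO mice, at 0.18 and 0.09 in mice 3 and 6.

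The comparison of genotypes sets KO mice, which lack microglia, against WT mice. Effects of the deletion in other cells cannot be told apart from the absence of microglia. Over all oligodendrocytes, *Anxa2* was 0.22 ± 0.07 in KO and 0.05 ± 0.02 in WT mice (SD, n = 2 mice each), a difference of 0.17 (SE 0.05). By library, KO had 0.39 and 0.23 in hippocampus and 0.15 and 0.11 in cortex, and WT had 0.08 and 0.03 in hippocampus and 0.05 and 0.04 in cortex. All 4 KO values lay above all 4 WT values. The test did not pass (limma, adjusted p = 1.00 over 9257 genes). *S100a6* was 0.59 ± 0.07 against 0.46 ± 0.01, and *Anxa4* 0.07 ± 0.01 against 0.04 ± 0.00 (SD, n = 2 mice each). *S100a10*, under the filter, was 0.05 in KO and 0.01 in WT mice. With 2 mice against 2, an exact permutation test cannot go below p = 0.333. In limma 0 of 9257 genes were called at an adjusted p of 0.05, 209 had an unadjusted p under 0.05, and edgeR called 8 genes, none of them a member.

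Both KO mice lay above both WT mice for 3 of the 6 members tested (*Anxa2*, *Anxa4* and *S100a6*), where 11.9% of all genes did, and for 0 of 6 below, where 8% did. These values include Oligo1, which held 1552 KO and 6 WT cells. In the cells outside Oligo1, the *Anxa2* difference was 0.03 (SE 0.02; limma adjusted p = 1.00), and the same 3 of 6 members lay above, against 9.84% of genes, with 0 of 6 below, against 6.89%. Without WT mouse 4 that difference was 0.01, and without WT mouse 1 it was 0.04. Within each batch named in the deposited cell table, which pairs 1 KO with 1 WT library of the same tissue, the *Anxa2* difference over all cells was 0.31 and 0.20 in hippocampus and 0.09 and 0.07 in cortex. For *S100a6* it was 0.14 and 0.14 in hippocampus and −0.00 and 0.23 in cortex, and without KO mouse 6 the *S100a6* difference was 0.08 in place of 0.13.

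**Figure D3:**
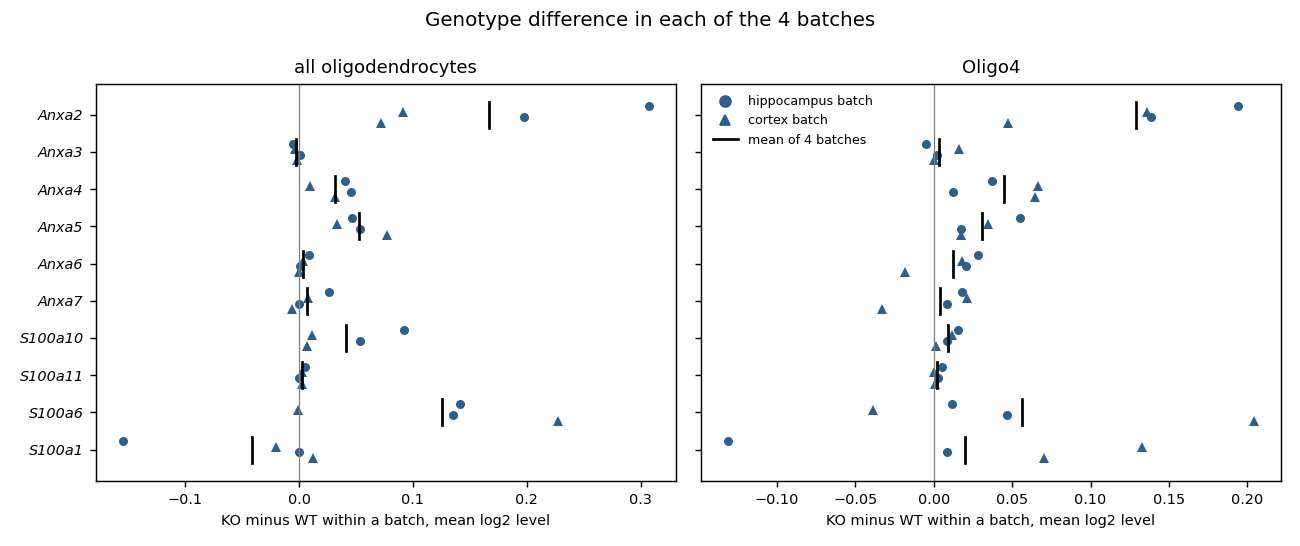
KO minus WT difference of mean log2 level within each of the 4 batches, for all oligodendrocytes (left) and Oligo4 (right), with circles for hippocampus, triangles for cortex and a black bar for the mean of the 4. For Anxa2 all 4 points lie above 0 in both panels, at 0.07 to 0.31 and 0.05 to 0.19.

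Inside single clusters, the largest difference of *Anxa2* was in Oligo4, at 0.20 ± 0.07 in KO and 0.07 ± 0.02 in WT mice (SD, n = 2 mice each). The difference was 0.13 (SE 0.05; limma adjusted p = 1.00), and edgeR on summed UMIs gave a log2 fold of 1.89 with an adjusted p of 0.0061, the sole call of a member under any setting tried. Within batches it was 0.19 and 0.14 in hippocampus and 0.14 and 0.05 in cortex, and without KO mouse 3 it was 0.08. Summed erythrocyte markers in Oligo4 were 22.5 and 8.96 per 10000 UMIs in KO hippocampus against 0.289 and 0.295 in WT hippocampus. In cortex they were 0.309 and 0.825 against 0.260 and 0.158. Summed endothelial markers (5 genes) in Oligo4 were 0.0173 to 0.0557 per 10000 UMIs in WT libraries and 0.0546 to 0.0767 in KO libraries apart from the cortex of mouse 3, which had 1.37, and the part of either marker set in the *Anxa2* difference was not tested. Oligo4 had 2 of 6 members above (*Anxa2* and *Anxa4*), where 14.2% of genes were. In Oligo2, 2 of 4 tested members lay above (*Anxa7* and *S100a6*; 11.2% of genes), and in Oligo3 1 of 6 did (*Anxa4*; 8.74%). Below lay 0 members in Oligo2, Oligo3 and Oligo4, where 9.93%, 7.68% and 14.2% of genes did. In limma, 0 genes were called in any of these clusters. Unadjusted p-values under 0.05 numbered 139, 103 and 282 in Oligo2, Oligo3 and Oligo4, where edgeR called 4, 3 and 25 genes.

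In Oligo4 of KO mice, *Anxa2* was seen more often in cells that also carried UMIs of *C4b* and *Serpina3n*. These encode a complement component and a serine protease inhibitor, and both are raised in reactive glia. The paper names both among the genes highly expressed in Oligo1, so this split is not independent of the high *Anxa2* of Oligo1. Cells with a UMI of only 1 of these genes were left out of the split. Oligo4 of KO mice 3 and 6 held 266 and 268 cells in hippocampus and 47 and 72 in cortex. Among Oligo4 cells with both, 46.0% of 63 and 44.6% of 56 had an *Anxa2* UMI in hippocampus of KO mice 3 and 6. In cortex it was 55.6% of 9 and 26.7% of 15. Among cells with neither, it was 13.2% of 68, 7.69% of 117, 0 of 20 and 0 of 24. For 0 of 24 the exact 95% binomial interval reaches 14.2%, and for 0 of 20 it reaches 16.8%. WT Oligo4 cells with neither had 13.1%, 8.93%, 11.1% and 7.69%, and no WT Oligo4 cell had both. Cells with neither thus had 0% to 13.2% in KO and 7.69% to 13.1% in WT libraries. KO cells with both had a higher share than KO cells with neither in 4 of 4 libraries. Oligo4 cells with both were not deeper, with median UMIs of 10614, 11616, 16541 and 14380 against 11115, 12362, 16904 and 15647.5. *Anxa2* showed the same direction in the 4 KO libraries of Oligo2, at 9.62% to 14.7% against 1.11% to 4.00%. In Oligo3 it did so too, at 10.7% to 21.4% against 3.99% to 5.93%. Oligo3 cells with both were deeper in 3 of 4 KO libraries, with medians of 9228.5, 10831, 12369 and 13253 against 8874, 10039, 13281 and 12466. Those of Oligo2 were deeper in hippocampus, at 10767.5 and 11335 against 10196.5 and 11172, and not in cortex. The part of depth in these shares was not tested. *S100a10* was seen more often with both in 4 of 4 KO libraries of Oligo2 and 3 of 4 of Oligo4, but not in Oligo3. In Oligo2 the shares were 3.85%, 1.72%, 3.85% and 2.86% against 1.41%, 1.6%, 1.86% and 0%. In Oligo4 they were 3.17%, 3.57%, 0% and 6.67% against 2.94%, 0%, 5% and 0%. At most 6 Oligo2 cells and 2 Oligo4 cells with both in a library had an *S100a10* UMI. In Oligo3 its share was 1% against 3.44% and 0% against 3.63% in hippocampus of mice 3 and 6, and 3.57% against 0.659% and 0% against 0.725% in cortex, where at most 1 cell with both in each library had an *S100a10* UMI. *Anxa4* was higher with both in 4 of 4 KO libraries of Oligo3 (9% to 14.3% against 3.63% to 5.80%) and in 3 of 4 of Oligo2. These intervals cover counting error only.

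**Figure D4:**
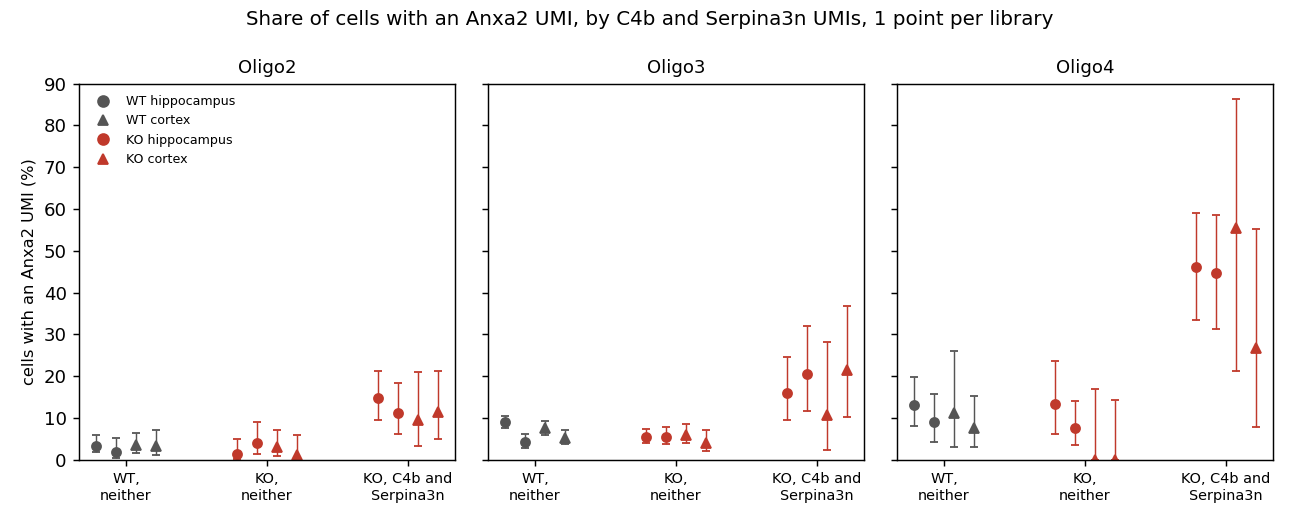
Percent of cells with an Anxa2 UMI in Oligo2, Oligo3 and Oligo4, for WT cells with neither C4b nor Serpina3n UMIs and for KO cells with neither or with both, each point 1 library with its exact 95% binomial interval. In KO Oligo4, 26.7% to 55.6% of cells with both had Anxa2, against 0% to 13.2% of cells with neither.

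Within KO Oligo1, *S100a10* was higher in hippocampus than in cortex by 0.17 (SE 0.05), in mouse 3 by 0.21 and in mouse 6 by 0.14. This tissue comparison was made after its values had been seen, and it did not pass (limma adjusted p = 0.999, and 0.116 with the mouse as a block). *Anxa2* differed by 0.21 (SE 0.16; limma adjusted p = 0.999). Over all oligodendrocytes, the genotype difference of *Anxa2* was larger in hippocampus than in cortex by 0.17 (SE 0.07; interaction, limma adjusted p = 0.792), and in Oligo2 to Oligo4 by 0.04.

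Over the 28 points of library and cluster, the genes with the levels most like *Anxa2* were *Flnc* (Pearson's r = 0.98), *Rhoj* (0.96) and *Cebpd* (0.96). For *S100a10* they were *Flnc* (0.94), *Snx10* (0.92) and *Anxa2* itself (0.91), and for *Anxa4* *Tmem176b* (0.91), *Tmem176a* (0.90) and *Sbno2* (0.90). *Anxa5* was most like *Enpp6* (0.97), a gene of newly formed oligodendrocytes, *Sh3kbp1* (0.97) and *Efr3b* (0.96). *S100a6* was most like *Pdgfa* (0.93) and *Msn* (0.93), and *S100a1* like *Sec11c* (0.96) and *Sept8* (0.95). Among the members, r was 0.85 for *Anxa2* and *Anxa4*, 0.86 for *Anxa5* and *S100a6*, and −0.00 for *Anxa2* and *Anxa5*. Points of 1 library share its depth and preparation, so these are descriptions.

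The other annexins were too sparse to follow. None of the other 3 annexins in the table (*Anxa1*, *Anxa9* and *Anxa11*) passed the filter. Of 9 other S100 genes, *S100a13*, *S100a16* and *S100b* passed. *S100a16* and *S100b* were lower in Oligo1 than in the pooled other clusters (−0.19 and −0.22) and *S100a13* differed by −0.04. For *S100b* this rested on Oligo2, as the mean level over KO libraries was 0.21 in Oligo1, 1.17 in Oligo2, 0.18 in Oligo3 and 0.10 in Oligo4. For *S100a16* Oligo1 (2.07) lay below Oligo2 (2.49) and Oligo3 (2.27) and above Oligo4 (1.69). Against Oligo2 and Oligo3, all 3 were lower in Oligo4 of both genotypes, by −0.25 to −0.56 in WT and −0.37 to −0.65 in KO mice. For *S100b* this too rested mainly on Oligo2, as WT libraries had means of 0.08 in Oligo4, 0.14 in Oligo3 and 1.08 in Oligo2. Of 19 partner and membrane repair genes, 10 passed, and none of these was higher or lower in Oligo1 by at least 0.1 in both KO mice. *Myof*, which was under the filter, was higher in Oligo1 by 0.05 in both KO mice. Its mean share of cells with a UMI over KO libraries was 7.73% in Oligo1, 0.806% in Oligo2, 1.48% in Oligo3 and 3.49% in Oligo4. Among the genes that passed, smaller differences were seen. *Capns1*, the small calpain subunit, differed by 0.08 and *Plat*, the tissue plasminogen activator, by −0.08. In Oligo4, 1 of the 10 was higher, *Itgb1*, an integrin subunit, by 0.28 in WT and 0.29 in KO mice. No gene of these lists was called between genotypes in limma. Over all oligodendrocytes the largest differences among them were 0.07 for *Pdcd6* and −0.06 for *Itgb1* of the partners, and 0.08 for *S100b* and −0.07 for *S100a16*.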

How the data were processed

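Single-cell libraries from 4 mice were processed by the authors with Cell Ranger 5.0.0 on mm10, per the labels, and cells with at least 5000 UMIs and at most 10% mitochondrial reads were kept. Cells had been sorted by scatter to leave out debris, erythrocytes and doublets, and none were called computationally in this work. The deposited values were log2(normalized UMI count + 1), reaching 12.2. Dividing out each cell's scaling gave whole UMI counts for 100% of values within 0.001, and these were summed for edgeR. The deposited cell table also gave a total count, a mitochondrial percent and a score per cell, with the authors' clusters and batches.

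Members and lists were chosen with earlier results of these data known. The text names all 10 members, list genes by size of difference and the 3 genes most like each member. The mouse was the replicate, as the mean of its 2 library means, except in the tissue differences, which were fitted on libraries. Genes detected in 5% of cells or more were tested with limma 3.58.1 in R 4.3.3, with Benjamini-Hochberg adjustment at 0.05, and edgeR 4.0.16 (quasi-likelihood test) was an alternative. SEs are from the mice alone, and for the tissue differences from the libraries, where the 2 libraries of a mouse counted as separate. The labels give both tissues of a mouse the same number, and these libraries deviated together (correlation 0.84 in WT, 0.85 in KO). Members under the filter took their values from a fit without it. That choice, the tissue comparison in Oligo1 and pooling all cells of a mouse were made after seeing the data. Gene positions are from GENCODE, where 18526 of 18833 symbols were found. The other alternatives were a pseudocount of 0.1 on means, other filters, centring, batch as a block, single tissues, thinned cells, and each mouse left out. The sum of oligodendrocyte markers is not reported here.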

Additional observations from a re-analysis of the deposited data

How the results depend on the processing

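Of 170 alternative values of members, 142 stayed on their side of the threshold or within the spread between mice. Another 27 moved by more than that spread, 1 passed the threshold and 0 counted as reversed. That 1 was Anxa2 between genotypes in Oligo4, with a log2 fold of 1.89 in edgeR. For cluster differences that did not pass the 0.1 rule, a change of sign was not counted as a reversal. Anxa4 in Oligo4 against Oligo2 and Oligo3 of WT mice was 0.011, and −0.004 without mouse 4. Where limma called 0 genes between genotypes, the log2 of the mean plus 0.1 called 2 over all oligodendrocytes, 2 outside Oligo1, 2 in Oligo2, 1 in Oligo3 and 12 in Oligo4, and edgeR called 8, 3, 4, 3 and 25. No filter called 1 over all cells, 1 outside Oligo1 and 1 in Oligo3. With batch as a block, 35 genes were called over all cells, 3 outside Oligo1, 7 in Oligo2 and 5 in Oligo4. With the mouse number as replicate block, the tissue difference outside Oligo1 called 6 genes in place of 0, and the pairing changed no call of a member. In Oligo1 the tissue difference called 3 genes in edgeR. On the log2 of the mean plus 0.1, the genes past 0.1 numbered 2274 in place of 534 in Oligo1, and 2936 in place of 817 (WT) and 3019 in place of 879 (KO) in Oligo4. With 1 mouse left out they numbered 757 to 806, 1110 to 1293, and 1157 to 1290. With 1 mouse left out, only 1 mouse had to pass the 0.1 rule in place of 2, so these last counts could not fall. The cause of the other changes was not tested. At this depth Anxa3, Anxa6 and S100a11 were too sparse for a difference to be detected.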

Other observations

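The 6 WT cells that the authors placed in Oligo1 all came from the hippocampus of mouse 4. Among them, S100a6 was seen in 5 and S100a1 in 3, Anxa6 in 2, and Anxa2, Anxa3, Anxa4 and Anxa5 in 1 each, while S100a10, S100a11 and Anxa7 were seen in 0. With 6 cells these are values only.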
